A study of Caenorhabditis elegans with 2 samples.

Results

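Chaperones bind unfolded or newly made proteins and help them fold, move between compartments or be degraded. Their families work in different places. Hsp70, Hsp90 and Hsp110 proteins act in the cytosol, dedicated Hsp70 members act in the endoplasmic reticulum (ER) and in mitochondria, and Hsp60 forms the mitochondrial folding chamber. Many of their genes are transcribed without stress and more strongly after heat or protein misfolding, when heat shock factor binds inverted repeats of a short unit (the heat shock element) near their 5′ ends.

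Regions precipitated with tagged SOX-4, a transcription factor of the Sox family with an HMG-box DNA-binding domain, were examined at 8 Caenorhabditis elegans genes of this system: hsp-1, hsp-90, hsp-110, sip-1, hsp-3, hsp-4, hsp-6 and hsp-60. These 8 of 19985 annotated protein-coding genes were chosen by their known roles and by signal already seen at most of them in these same lists, so their counts and levels are a description and carry no test. All animals were hermaphrodite L1 larvae of strain OP517, which carries unc-119(tm4063) on chromosome III and the transgene wgIs517, a stable source of SOX-4 whose C terminus is joined to GFP and FLAG. Embryos were obtained by bleaching and hatched unfed, larvae were harvested 6 hours after synchronization, and DNA from whole animals was precipitated with an anti-GFP antibody. The 2 biological replicates form 1 group, with no second condition. Every animal carried the transgene and the unc-119 mutation, and untagged animals were not analysed here, so precipitation by SOX-4 cannot be told apart from other sources of signal at these sites. The promoter that drives the transgene is not given in the sources used here, and whole larvae do not show in which cells a region was bound.

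The lists rank regions by the authors' own signal value. Signals were ranked within each list and also compared between the 2 replicate lists, without further normalization. The pooled list, called on both replicates together, held 30000 regions with signal from 12.9 to 550.1 and a median of 18.4, and it includes background. The optimal list, the authors' reproducible subset, held 1497 regions of ce11 with a lowest signal of 51.3 and a median of 76.2. Each replicate's own list also held 30000 regions, with medians of 11.6 and 11.2. Read depth is unknown. In replicate 2 but not in replicate 1, 13 mitochondrial regions took some of the highest ranks.

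An optimal peak summit lay between 2 kb upstream and the 3′ end of 7 of the 8 genes, which compares with 1723 of 19985 coding genes (8.62%). The exception was hsp-4. The 7 peaks had signals of 68.9 to 361.5 with a median of 122.8, and 6 of them were above the median of the optimal list. In a narrower promoter window, from 1000 bp upstream to 200 bp downstream of the Ensembl 5′ end, 6 of the 8 genes had an optimal peak, against 5.67% of coding genes. The gene lost there was hsp-90, whose peak lies inside the transcription unit of its longer isoform. Since the 8 genes were picked with these lists known, the gap between their share and the background is set in part by the choice.

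The sequence under 6 of the 7 peaks is shown first, because it holds the elements that later paragraphs place relative to the summits. Each is read in the direction of the chaperone gene from the RefSeq copy of the ce11 assembly. Capitals mark matches, on either strand, to 4 short motifs: GAANNTTC and TTCNNGAA, which are the 2 ways of pairing heat shock element units; CCAAT, the core of the CCAAT box; and GAGAGA. The hsp-6 run covers the central part of a wider peak, and the hsp-3 run stops at the annotated 5′ end. The peak at sip-1 overlaps an annotated first exon of its neighbour and is described without its sequence.
hsp-90, chrV:14685637-14685881, plus strand: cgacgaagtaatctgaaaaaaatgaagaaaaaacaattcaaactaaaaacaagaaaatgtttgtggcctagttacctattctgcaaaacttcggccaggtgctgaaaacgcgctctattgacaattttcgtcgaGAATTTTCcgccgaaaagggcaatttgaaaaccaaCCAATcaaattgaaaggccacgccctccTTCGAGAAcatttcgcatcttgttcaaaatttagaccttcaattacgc
hsp-1, chrIV:17278461-17278656, plus strand: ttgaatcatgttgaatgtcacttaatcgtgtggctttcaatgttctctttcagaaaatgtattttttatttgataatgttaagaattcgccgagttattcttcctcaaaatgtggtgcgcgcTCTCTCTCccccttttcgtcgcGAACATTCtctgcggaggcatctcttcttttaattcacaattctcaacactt
hsp-110, chrIII:8447104-8447221, minus strand: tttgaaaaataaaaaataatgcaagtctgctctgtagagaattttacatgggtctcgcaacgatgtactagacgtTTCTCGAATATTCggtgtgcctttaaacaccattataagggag
hsp-3, chrX:6092125-6092222, minus strand: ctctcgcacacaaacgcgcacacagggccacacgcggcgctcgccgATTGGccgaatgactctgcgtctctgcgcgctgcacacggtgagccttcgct
hsp-6, chrV:4827052-4827350, minus strand: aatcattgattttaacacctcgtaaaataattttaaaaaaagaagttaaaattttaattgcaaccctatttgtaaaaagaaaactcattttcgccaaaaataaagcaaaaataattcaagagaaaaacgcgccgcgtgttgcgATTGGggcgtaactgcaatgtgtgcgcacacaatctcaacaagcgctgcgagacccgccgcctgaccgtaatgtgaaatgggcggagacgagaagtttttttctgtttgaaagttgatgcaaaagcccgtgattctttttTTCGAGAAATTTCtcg
hsp-60, chrIII:1619022-1619266, plus strand: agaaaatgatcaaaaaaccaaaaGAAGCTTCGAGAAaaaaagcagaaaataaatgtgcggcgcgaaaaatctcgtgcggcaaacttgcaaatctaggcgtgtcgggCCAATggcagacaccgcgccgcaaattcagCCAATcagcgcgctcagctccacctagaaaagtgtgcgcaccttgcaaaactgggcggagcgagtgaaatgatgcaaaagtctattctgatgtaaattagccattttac

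In these runs the heat shock element pairs overlap each other at hsp-110, hsp-6 and hsp-60, which gives the 3-unit element in each. They stand apart at hsp-90 and a single pair is present at hsp-1. The hsp-3 run holds a CCAAT box and neither pair.

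Among the cytosolic chaperones, hsp-90 had the strongest peak of the group. This gene, also known as daf-21, encodes the only cytosolic Hsp90 of the worm. Its peak had a pooled signal of 361.5 (rank 20 of 30000), with 167.6 in replicate 1 (rank 27) and 191.8 in replicate 2 (rank 31). The replicates placed their summits 4 bp apart. The position of the peak depends on the annotation. It lay 832 bp downstream of the 5′ end of the longer Ensembl transcript, in an intron, and 410 bp upstream of the 5′ end given by RefSeq. Weaker pooled regions followed in the gene body, 2835 bp and 3427 bp from the Ensembl 5′ end, with signals of 17.9 and 30.2. Neither is an optimal peak.

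The gene hsp-1 encodes the constitutive cytosolic Hsp70. Its peak, 382 bp upstream of the 5′ end, had a pooled signal of 199.5 (rank 99), with 104.0 in replicate 1 (rank 98) and 93.3 in replicate 2 (rank 130). Both replicates thus placed it close to its pooled rank, with summits 6 bp apart. The other 3 pooled regions of the locus, 1738 bp upstream and 1173 bp and 1639 bp into the gene, had signals of 14.8, 15.3 and 19.9, close to the median of the pooled list.

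The peak at hsp-110, which encodes an Hsp110 nucleotide exchange partner of Hsp70, was 230 bp upstream of the 5′ end and was the only pooled region of its locus. Its pooled signal was 122.8 (rank 334), with 70.3 in replicate 1 (rank 270) and 58.3 in replicate 2 (rank 387). The replicate summits stood 31 bp apart. The small heat shock protein gene sip-1, whose product is found mainly in embryos, also had 1 pooled region. It was centred 303 bp upstream, at chromosome III from 10506906 to 10507301, with a pooled signal of 110.7 (rank 392), 51.6 in replicate 1 (rank 485) and 62.7 in replicate 2 (rank 336). Its replicate summits lay 61 bp apart, the widest spacing among the 7 peaks, whose median was 14 bp. A second strong region lay outside the sip-1 window, 701 bp beyond the 3′ end, with a signal of 92.7.

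The ER members differed from each other. Both hsp-3 and hsp-4 encode BiP, the Hsp70 of the ER lumen. The hsp-3 locus had an optimal peak 46 bp upstream of the Ensembl 5′ end and 385 bp upstream of the RefSeq one. Its pooled signal was 95.5 (rank 496). Replicate 1 gave 72.9 there (rank 245), whereas replicate 2 gave 13.6 (rank 9159), so the peak rests on replicate 1. In replicate 2 the strongest region of the locus was another one, 689 bp upstream, with a signal of 34.3 (rank 1011), and replicate 1 listed no region at that site. The pooled list held a matching region 696 bp upstream with a signal of 36.4 (rank 2734), the strongest of the 8 pooled regions of the member loci that did not enter the optimal list. A further pooled region of hsp-3, 1625 bp upstream, had a signal of 23.4.

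The hsp-4 locus, on chromosome II from 7350112 to 7352645 (minus strand), held no pooled and no optimal region. Each replicate listed 1 region there, at different sites. In replicate 1 it was 1097 bp upstream with a signal of 9.57 (rank 22241), and in replicate 2 it was 376 bp upstream with a signal of 14.3 (rank 7918). The nearest pooled regions lay outside the window, 4731 bp upstream (signal 18.4) and 868 bp beyond the 3′ end (14.6). The 2 BiP genes therefore differ in the pooled list, but in replicate 2 alone the region nearest the 5′ end of hsp-3 (13.6) was no stronger than that of hsp-4 (14.3).

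The mitochondrial members stood near opposite ends of the range. For hsp-60, which encodes the mitochondrial chaperonin, the peak was 601 bp upstream with a pooled signal of 328.7 (rank 27), 157.0 in replicate 1 (rank 31) and 167.2 in replicate 2 (rank 41). The gene hsp-6 encodes the mitochondrial Hsp70, mortalin. Its peak, 441 bp upstream, had the lowest pooled signal of the 7 at 68.9 (rank 903), with 23.1 in replicate 1 (rank 2281) and 40.98 in replicate 2 (rank 725). The hsp-6 region was thus outside the 1497 strongest regions of replicate 1 and inside those of replicate 2. It is the member closest to the lower end of the optimal list. A second pooled region, 751 bp into hsp-6, had a signal of 14.05.

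**Figure D1:**
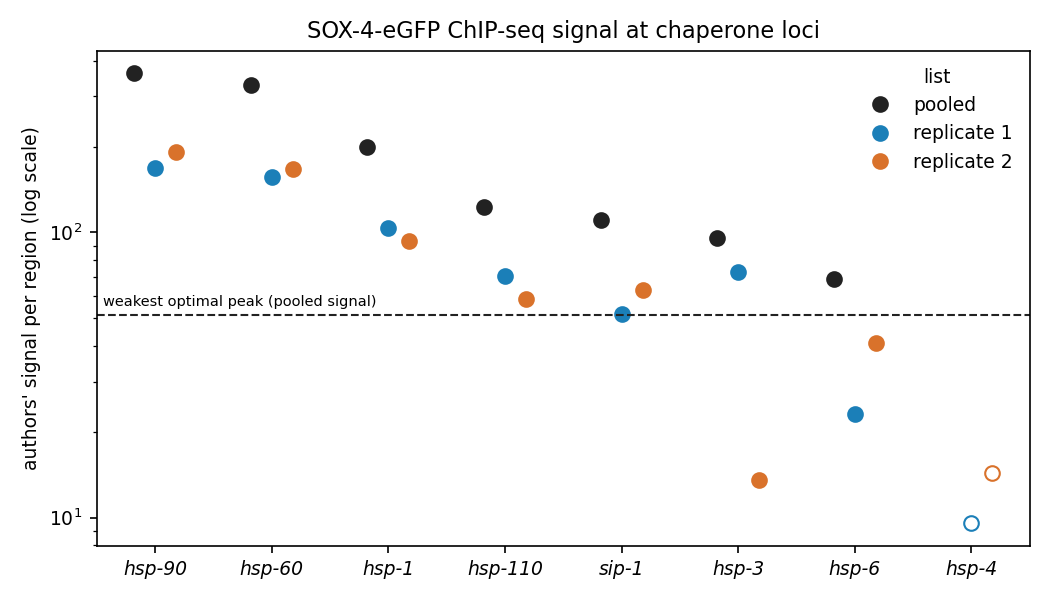
Signal of the optimal peak at each chaperone gene in the pooled list (black), replicate 1 (blue) and replicate 2 (orange), on a log axis, in order of pooled signal; the dashed line is the weakest optimal peak of the pooled list (51.3). Open circles at hsp-4 are the strongest region of each replicate's locus, since the pooled list holds none; hsp-3 shows the widest gap between replicates, 72.9 against 13.6.

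Set against the spread of all optimal peaks, 5 of the 7 peaks were similar in both replicates and hsp-3 was not. Of the 1497 optimal peaks, 1493 had a region in both replicate lists. Across these, the log2 ratio of replicate 2 to replicate 1 signal had a median of -0.03, with 5th and 95th percentiles of -0.97 and 0.95. The ratio was -0.16 at hsp-1, -0.27 at hsp-110, 0.09 at hsp-60, 0.19 at hsp-90 and 0.28 at sip-1. For hsp-6 it was 0.83, still inside that range. At hsp-3 it was -2.42, the lowest of all 1493. Replicate 2 was the higher one at 4 of the 7 peaks. With 2 replicates these ratios have no test, and whether the low value at hsp-3 comes from the animals or from the libraries was not tested. Both replicates' own 1497 strongest regions contained the peak for 5 of the 7 genes, against 65.3% of optimal peaks, with hsp-3 missing in replicate 2 and hsp-6 in replicate 1.

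**Figure D2:**
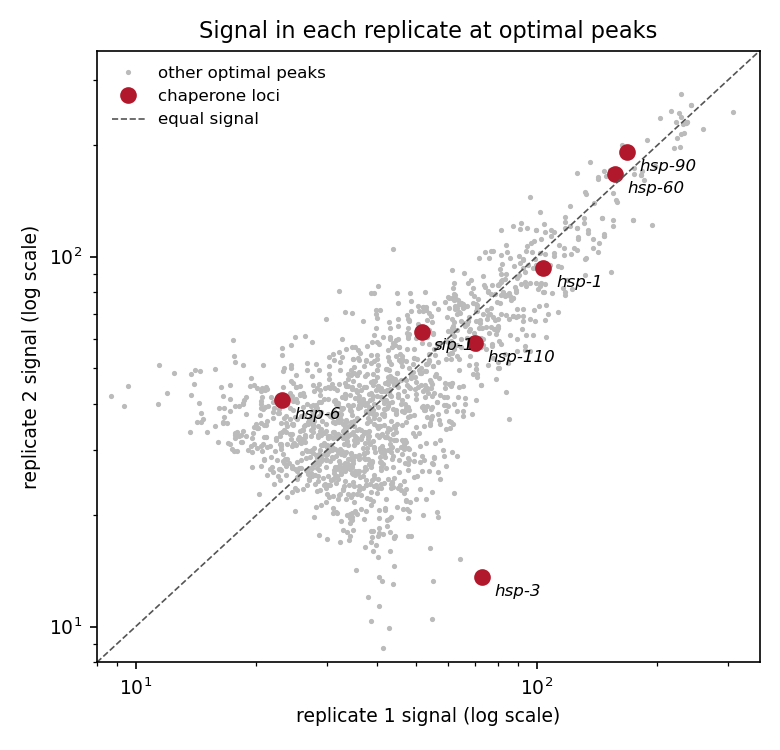
Signal in replicate 1 (x axis) and replicate 2 (y axis), both on log axes, for optimal peaks with a region in both replicate lists (grey) and for the 7 chaperone peaks (red); the dashed line marks equal signal. Of the 7 chaperone peaks, 5 follow the line, hsp-6 lies above it and hsp-3 lies farthest below it of all peaks.

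Most of these peaks lie close to the 5′ end of a neighbour read in the opposite direction. A divergent coding neighbour, with 5′ ends at most 1000 bp apart in either annotation, was present at 5 of the 7 peaks, and in all 5 the 5′ end of the neighbour was nearer to the summit than that of the chaperone gene. The summit fell between the Ensembl 5′ ends of the pair at hsp-6, hsp-60 and hsp-110, and at hsp-90 only with the RefSeq 5′ end of that gene. At hsp-60 the neighbour was Y22D7AL.10, annotated by RefSeq as the mitochondrial partner co-chaperonin (Hsp10). Its 5′ end was 212 bp from the summit against 601 bp for hsp-60, with 813 bp between the 5′ ends. Both subunits of the mitochondrial folding chamber therefore share the second strongest peak of the group.

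The other neighbours belong to other processes. At hsp-90 the summit was 265 bp from C47E8.4, a FAM50 homolog, against 410 bp from the RefSeq 5′ end of hsp-90. At hsp-6 it was 159 bp from C37H5.5, a homolog of a nucleolar complex protein, against 441 bp. At sip-1 it fell 46 bp downstream of the 5′ end of sly-1, a Sec1-family gene of vesicle transport, against 303 bp for sip-1. At hsp-110 the distances were nearly equal, 214 bp to rpn-3, a proteasome regulatory subunit gene, and 230 bp to hsp-110. These peaks cannot be given to one gene of a pair from position alone.

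At hsp-1 and hsp-3 the chaperone gene had the nearest coding 5′ end. The next coding gene was clec-196, 1621 bp from the summit, for hsp-1 and C15H9.5, 1130 bp from it, for hsp-3. Annotated noncoding RNA genes came nearer at 3 loci. They were F26D10.23 at hsp-1 (164 bp), C37H5.16 at hsp-6 (63 bp, with the summit inside it) and C30C11.14 at hsp-110 (44 bp). Of the 6 genes with an optimal peak in the promoter window, 2 had the nearest coding 5′ end, against 70.0% of the 1133 coding genes with such a peak. At 4 of the 6 the peak lay in coding promoter windows of both strands. The share was 35.4% of the 814 optimal peaks in any coding promoter window, each counted once. The 6 peaks were reached through genes, and a peak in several windows has more ways to enter. The 35.4% is therefore too low as a background for them.

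**Figure D3:**
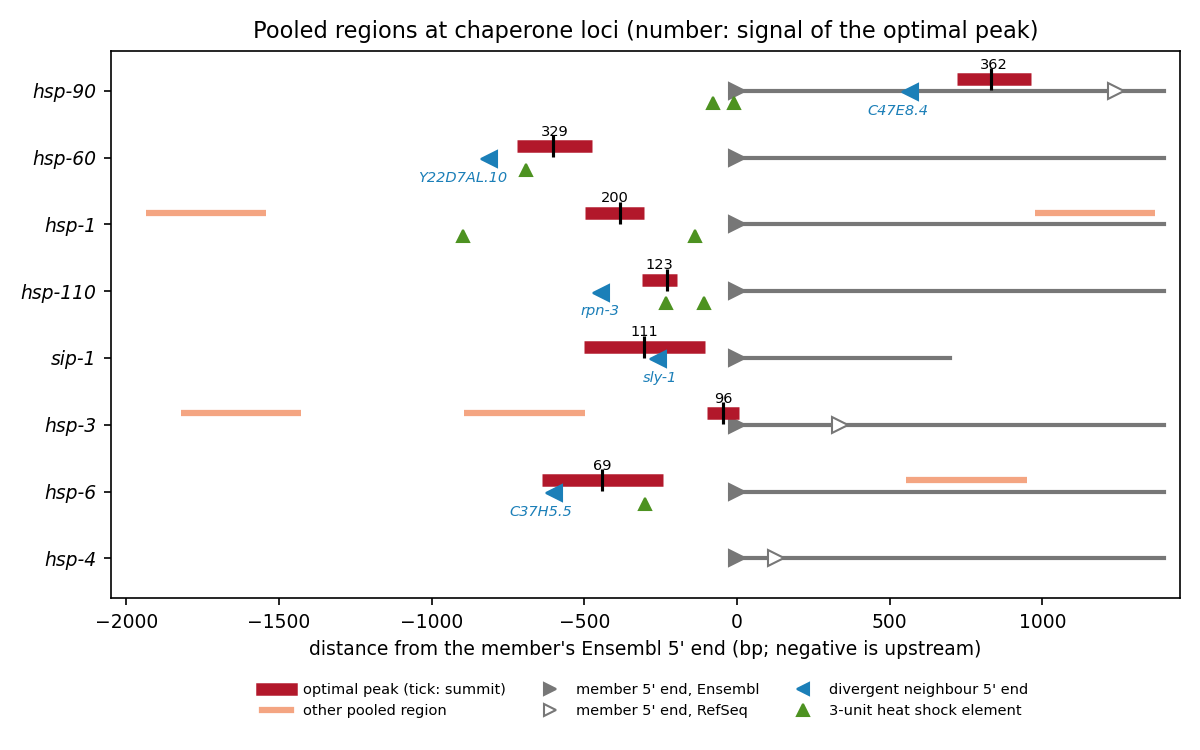
Pooled regions around each chaperone gene, drawn as distance in bp from its Ensembl 5′ end with the gene running to the right; red bars are optimal peaks with the summit ticked and the pooled signal printed above, rounded to a whole number, and light bars are other pooled regions. Blue arrowheads are 5′ ends of divergent coding neighbours, which are nearer to the summit at hsp-90, hsp-60, hsp-110, sip-1 and hsp-6, and green triangles are 3-unit heat shock elements, inside the peak at hsp-60, hsp-110 and hsp-6.

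Heat shock elements were common in these promoters. The 3-unit element occurred in the promoter window of 5 of the 8 genes, against 1534 of 19985 coding genes (7.68%). It lay inside the peak at hsp-110, 1 bp from the summit, at hsp-60, 90 bp from it, and at hsp-6, 140 bp from it. Elements outside the peak were found at hsp-1, 138 bp and 897 bp upstream of the 5′ end, and a further one at hsp-110, 109 bp upstream. At hsp-90 the elements were 9 bp and 79 bp upstream of the longer transcript, 841 bp and 911 bp from the summit, and the window of the RefSeq 5′ end held none. A match describes the letters and does not show that heat shock factor was bound.

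The same element was counted at all other peaks. Inside the peak region the 3-unit element occurred at 3 of the 7 chaperone peaks, at 2.47% of all 1497 optimal peaks and at 2.67% of the 28503 other pooled regions. Within 50 bp of the summit it occurred at hsp-110 alone of the 7, against 0.735% of optimal peaks. GAANNTTC was within 50 bp at hsp-1, hsp-90 and hsp-110 (4.14% of optimal peaks), and TTCNNGAA at hsp-110 (4.54%). Over all coding genes, an optimal promoter peak was present at 7.24% of those with a 3-unit element and at 5.54% of those without one. The 8 genes were chosen as chaperone genes, for which heat shock elements are known, so the count in their promoters is a description of that choice.

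Other short motifs were spread over the members. CCAAT lay within 50 bp of the summit at hsp-3, hsp-6 and hsp-60, against 15.3% of optimal peaks and 18.9% of other regions. It also lay in 92.5% of all coding promoter windows, so its presence sets no promoter apart. GAGAGA was found at 1 of the 7, hsp-1, against 19.4% of optimal peaks and 6.02% of other regions. A count of 1 in 7 does not set these peaks apart from the optimal list. ACAAT, the core recognised by Sox proteins, was within 50 bp at hsp-6 and hsp-90. Its share was lower in optimal peaks (23.2%) than in other regions (29%). Optimal peaks were also richer in GC (44.4% against 33.1%), and the part of base composition in this difference was not tested. TATAAA and CACGTG were at none of the 7, and were at 8.08% and 5.41% of optimal peaks. TGACGTG, an element of the type bound by XBP-1 in the ER unfolded protein response, was in the promoter windows of both BiP genes, 129 bp upstream of hsp-3 and 80 bp upstream of hsp-4. It was also 75 bp downstream of the 5′ end of hsp-110, and in 9.42% of coding promoters. The match at hsp-3 was not within 50 bp of its optimal summit, and hsp-4 has no optimal peak. TGACGTG was within 50 bp of the summit at 2.47% of optimal peaks and 0.681% of other regions. The longer ERSE of mammalian ER chaperone genes was within 50 bp of none of the 7. It was also at 0 of the 1497 optimal peaks, so its absence is not particular to these loci.

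Base composition at the summits varied widely. The GC content of the 101 bp around the summit was 66.3% at hsp-3, 57.4% at hsp-60, 49.5% at hsp-6, 46.5% at hsp-1, 44.6% at hsp-90, 43.6% at hsp-110 and 34.7% at sip-1. All optimal peaks had 44.4% ± 9.55 (SD, n = 1497) and the other pooled regions 33.1% ± 9.21 (SD, n = 28503). The hsp-3 summit was thus the richest in GC among the 7 and sip-1 the poorest. The part of base composition in the signal was not tested.

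The wider chaperone system was read from 8 further lists, written with earlier results of these data known. Of their 80 genes found in the annotation, 24 (30%) had an optimal peak in the promoter window, against 5.67% of all coding genes, and these 24 genes shared 22 peaks. Their summits lay 72 to 493 bp from the 5′ end with a median of 215 bp. Both replicates' own 1497 strongest regions contained the peak for 20 of the 24 genes, against 65.3% of optimal peaks. The exceptions were hsp-16.2, hsp-16.41, dnj-7 and atfs-1. Of the 22 peaks, 16 also lay in the promoter window of another coding gene. The share was 38.5% of the 814 optimal peaks in any coding promoter window, each counted once. The 22 peaks were reached through genes, and a peak in several windows has more ways to enter. The 38.5% is therefore too low as a background for them. In prefoldin, the complex that hands nascent chains to the CCT chaperonin, 4 of 6 genes had a peak. Their pooled signals were similar: 97.8 at pfd-1, 96.5 at pfd-4, 94.8 at pfd-6 and 93.3 at pfd-5. The replicates were less alike, with 61.7 in replicate 1 and 35.3 in replicate 2 at pfd-6. At pfd-5 they gave 39.2 and 52.2, at pfd-1 51.3 and 48.3, and at pfd-4 52.6 and 43.8. In CCT itself 3 of 8 subunit genes had an optimal promoter peak, cct-1 (206.8), cct-8 (191.4) and cct-7 (90.2). Each of these CCT and prefoldin peaks also lay in the promoter window of another coding gene. None of the 3 CCT genes and 2 of the 4 prefoldin genes had the nearest coding 5′ end to the peak. Position alone does not give these peaks to the chaperone gene.

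Cochaperones of Hsp90 and Hsp70 had 7 of 15. The strongest was bag-1, a nucleotide exchange factor for Hsp70, at 234.2. Next came ahsa-1, the activator of the Hsp90 ATPase, at 183.0, and the J-domain genes dnj-19 at 182.2 and dnj-13 at 140.0. The peaks of ahsa-1, dnj-19 and dnj-13 are shared with C01G10.7, nhr-47 and F54D5.9, in that order, and that of bag-1 with no other coding promoter window. Of these cochaperone genes, bag-1 was above the signal of hsp-1 and the others were below it. The median strongest pooled signal in the promoter window, where there was one, was 69.98 for the cochaperones, 90.2 for CCT and 94.8 for prefoldin. It was 116.7 for the 6 of the 8 genes with such a region, which leaves out hsp-90 and hsp-4. In lists described below, it was 142.9 for the inducible cytosolic Hsp70 genes, 29.6 for the mitochondrial genes and 20.2 for the small heat shock protein genes. For all coding genes it was 21.5.

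Of 15 small heat shock protein genes other than sip-1, 2 had a promoter peak, the divergent pair hsp-16.2 and hsp-16.41 with 1 shared peak of signal 60.4. Of 3 inducible cytosolic Hsp70 genes, 2 had one, again a divergent pair, F44E5.4 and F44E5.5, with a shared peak of 142.9. The genes of each pair have close copies in the genome, so reads could be split among them and these values are uncertain. Close copies also occur among the small heat shock protein genes without a pooled region in the promoter window. Their lack of a peak is therefore uncertain too. None of the 4 genes for heat shock factor and its regulators had a pooled region in the promoter window.

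In the organelles the picture was mixed. Among 18 ER chaperone and ER stress genes, 4 had an optimal promoter peak, and all 4 had the nearest coding 5′ end to it. They were crt-1, encoding calreticulin, at 129.2, and enpl-1, encoding the ER Hsp90 endoplasmin, at 69.6 in a peak shared with imp-2. The others were atf-6, an ER stress sensor gene, at 62.6, and dnj-7 at 53.8. The dnj-7 region ranked 3087 in replicate 1 and 1615 in replicate 2. The median strongest pooled signal of the ER list was 29.1. Among 11 mitochondrial chaperone and stress genes, 2 had an optimal promoter peak. One was Y22D7AL.10, through the peak it shares with hsp-60. The other was atfs-1, the transcription factor gene of the mitochondrial unfolded protein response, at 52.2, near the lowest optimal signal of 51.3. The atfs-1 region had 15.1 in replicate 1 (rank 7392) and 33.5 in replicate 2 (rank 1055). The 3-unit heat shock element was in 7 of 15 cochaperone promoters, 6 of 15 small heat shock protein promoters and all 3 Hsp70 promoters, but in none of the 8 CCT promoters and 1 of 18 ER promoters. Of the 7 CCT and prefoldin genes with a promoter peak, 1 had the element. Among cochaperones, 5 of 7 genes with the element and 2 of 8 without it had a promoter peak. For small heat shock protein genes these counts were 2 of 6 and 0 of 9, and for ER genes 0 of 1 and 4 of 17. Of the 3 Hsp70 genes, which all had the element, 2 had a promoter peak. Over all coding genes the shares were 7.24% and 5.54%. These counts carry no test, since the lists were written with earlier results known.

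**Figure D4:**
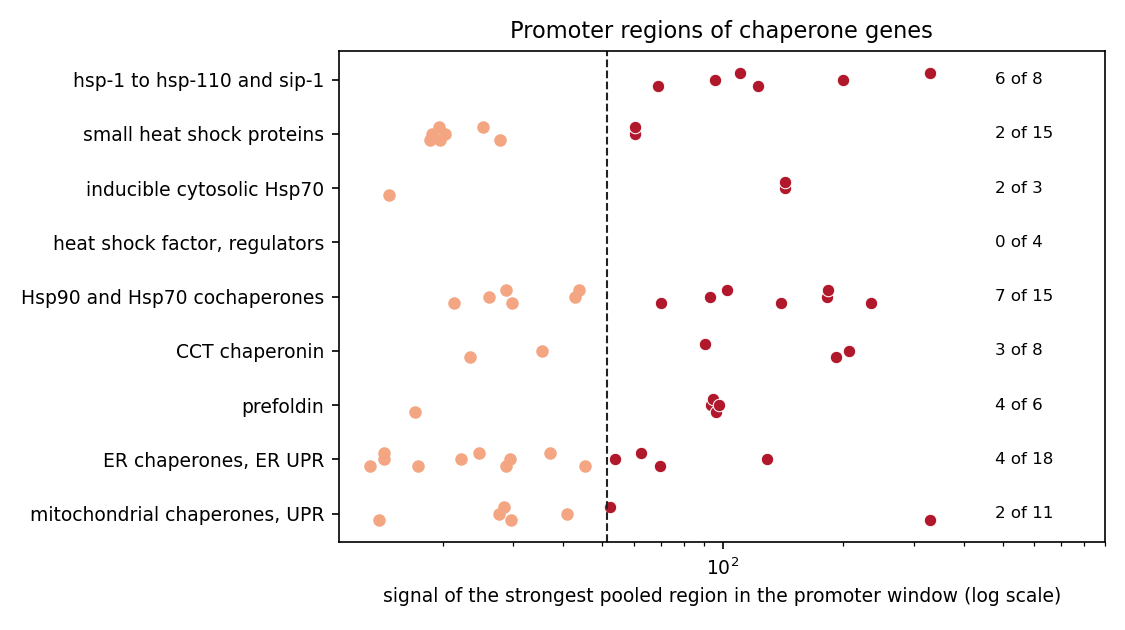
Signal of the strongest pooled region in each gene's promoter window, on a log axis, for the 8 chaperone genes (top row) and 8 further lists; dark points are optimal peaks, light points are not, and the dashed line is the weakest optimal peak (51.3). Numbers at the right give genes with an optimal promoter peak of all genes in the list. Examples are 6 of 8 in the top row, 4 of 6 for prefoldin and 0 of 4 for heat shock factor and its regulators. In the top row hsp-90 has no point, since its peak lies outside the Ensembl window, and hsp-4 has no pooled region. Genes of other lists without a pooled region in the window have no point either.

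Among coding genes outside the lists, the promoter peaks most like that of hsp-60, the strongest of the group in the Ensembl promoter window, were found by the distance between log2 signals in the 2 replicates. The nearest was cdc-48.1, which encodes an ATPase that extracts and unfolds ubiquitinated proteins. Its peak had a pooled signal of 321.0, with 152.5 in replicate 1 and 171.8 in replicate 2, at a distance of 0.06. K11H12.8 and rpl-15, a ribosomal protein gene, share a peak and came next with a pooled signal of 316.5, 147.5 in replicate 1, 170.1 in replicate 2 and a distance of 0.09. With 2 values per gene, this measure ranks peaks by overall strength.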

How the data were processed

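Anti-GFP ChIP-seq of whole L1 larvae was read from region lists on ce11 and ce10, for 1 group of 2 biological replicates as the labels number them. Per the file names and labels, the authors deposited 1 list per replicate, 1 pooled list (peaks and background) and an optimal list by the irreproducible discovery rate, each called with a control alignment. The sources used here do not give the caller, its version or the threshold. The authors' deposited signal served to describe and rank regions inside each list. It was also compared between the 2 replicates, as log2 ratios and distances, without further normalization. The −log10 q-value that the authors gave each region stood at its maximum of 2.99 at 488 pooled regions and ranked nothing here. No read counts were analysed, so depth and counting error are unknown. Where replicates differ, the spread may be technical.

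Regions were placed by summit, 1-based on ce11, against gene models of Ensembl release 115 (WBcel235, the ce11 sequence), with RefSeq 5′ ends beside them. A locus ran from 2 kb upstream to the 3′ end. A peak's value in a replicate is that of the strongest region it overlapped. Ranks count from the strongest region. Motifs were sought on both strands, the 3-unit heat shock element being 3 alternating units in either phase. The members and gene lists were chosen with earlier results of these data known. Text names the 8 members, the nearest neighbours, at most 4 genes per further list with an optimal promoter peak (strongest first) and the 3 genes most like hsp-60; the noncoding genes and the next nearest genes were named after their values were seen. Of 83 listed genes 80 were found. Window assignment and motif search were tested on simulated data. Alternatives changed windows, 5′ ends, peak strength, overlap, build, replicates, mitochondrial regions and motif range. Python 3.11.15, numpy 2.4.6, pandas 2.3.3 and matplotlib 3.10.9 were used.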

Additional observations from a re-analysis of the deposited data

How the results depend on the processing

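The count of 7 genes with an optimal peak in the locus, and of 6 in the promoter window, moved most when a peak was given only to the coding gene with the nearest 5′ end. Each then fell to 2 genes, hsp-1 and hsp-3, because divergent neighbours are nearer at the other 5 peaks. Other windows, only the peaks above the median signal of the optimal list, and 1 bp overlap gave 6 to 7 for the locus and 5 to 6 for the promoter window. With 500 bp upstream hsp-60 held no pooled region, so it has no signal there. Counting any transcript 5′ end, or RefSeq 5′ ends (an alternative chosen after seeing the data), gave 7, since hsp-90 then entered. Replacing the optimal list by the 1497 strongest regions of a single replicate gave 6 to 7 for the locus and 5 to 6 for the promoter window. In replicate 1 alone hsp-6 was lost. In replicate 2 alone hsp-3 was counted through the region 689 bp upstream, a different site. Leaving out the mitochondrial regions of replicate 2 moved hsp-60 from rank 41 to 29 and hsp-90 from 31 to 20. Within 100 bp of the summit instead of 50 bp, TTCNNGAA was at 3 peaks instead of 1, the 3-unit heat shock element at 2 instead of 1 and TGACGTG at 1 instead of 0. Signals at equal rank in the ce10 optimal list, which held 1486 regions, differed by at most 0.556%. Both builds hold the same experiment and were matched by rank alone, so this does not test the positions. No paired analysis was possible because there is 1 group. With 2 replicates, unknown depth and no untagged sample analysed here, no difference between loci has an error beyond the pair of replicate values.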
